A study of Homo sapiens with 4 samples.

Results

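The genes described are ARF1, ARF3, ARF4, ARF5, ARF6 and ARFGAP1, which are 6 of the 37468 features counted. They were found by symbol, and all 6 had UMIs (unique molecular identifiers, each a counted RNA molecule) in all 4 libraries. The set was chosen by measured values, the UMIs of ARF5, which were near absent without QTP, so the levels of ARF5 with and without QTP are given as a description. The cells were MSTO-211H, a human mesothelioma line of wild-type genotype, grown in suspension without serum and collected 48 h after the time of irradiation. The groups were Control (neither agent), Radiation (4 Gy), Drug (10 µM QTP) and Drug_Radiation (10 µM QTP and 4 Gy), with 1 single-cell library each. QTP is the labels' name for the compound, and the series title speaks of dopamine receptor inhibition.

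ARF GTPases are small proteins that switch membrane traffic on and off. With GTP bound they sit on Golgi, endosome or plasma membranes and recruit coats, clathrin adaptors and lipid enzymes, and with GDP bound they let go. ARF1, ARF3, ARF4 and ARF5 act mainly at the Golgi and neighbouring compartments, ARF6 acts at the plasma membrane and on endosomes, and ARFGAP1 is an activating protein that makes Golgi ARF hydrolyse its GTP.

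With 1 library per group there is no replicate check and no test. The 95% intervals cover counting error only. Levels are CPM, the UMIs of a gene in all cells of 1 library per 1000000 UMIs of nuclear genes, with no scaling for gene length, so levels are compared between libraries and not between genes. Kept cells numbered 2425 to 6990 per library, and no barcode occurred in more than 1 library. Depth moved with QTP: the median was 2318 UMIs per cell in Control and 5299 in Radiation, against 20405 in Drug and 18024.5 in Drug_Radiation. QTP, depth and any library batch cannot be told apart in this design. VIM and KRT18 stood between 2696 and 4661 CPM in every library, while mesothelin (MSLN) reached only 8.27 to 14.05 CPM and WT1 1.12 to 1.89. The 7 blood cell markers summed to 1.60 to 3.02 CPM and the 4 endothelial markers to 0.628 to 1.18 CPM.

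The ARF proteins are close relatives, so their coding sequences are shown side by side around the loop that grips the phosphates of GTP. The 60 bases below are coding bases 52 to 111 (40 to 99 in ARF6) from GENCODE 29 transcripts on GRCh38. Capitals mark the bases that differ from ARF5.
ARF1: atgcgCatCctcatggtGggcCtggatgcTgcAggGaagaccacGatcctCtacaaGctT
ARF3: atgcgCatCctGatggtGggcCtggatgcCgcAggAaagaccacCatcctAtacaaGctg
ARF4: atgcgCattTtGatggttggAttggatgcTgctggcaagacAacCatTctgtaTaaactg
ARF5: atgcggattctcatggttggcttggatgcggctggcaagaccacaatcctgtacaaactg
ARF6: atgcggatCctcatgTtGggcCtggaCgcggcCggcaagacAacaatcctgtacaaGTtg
In this window ARF1 and ARF3 differed from ARF5 at 11 bases, and ARF4 and ARF6 at 9. Over the whole coding sequence ARF5 was 76.8% identical to ARF4, 75.3% to ARF1, 73.1% to ARF3 and 64.6% to ARF6. Among the 5 ARF genes, ARF1 and ARF3 were the closest at 83.9%, and ARF4 and ARF6 the most distant at 59.5%. The longest run of bases that ARF5's transcript shared with that of another ARF gene was 15 to 18 bases. The files held 0 genes named as copies of a member.

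ARF5 had 11 UMIs in Control and 12 in Radiation, against 4650 in Drug and 9581 in Drug_Radiation. As levels these were, in the same order, 1.23 CPM (0.614 to 2.20), 0.837 (0.433 to 1.46), 53.3 (51.8 to 54.9) and 67.7 (66.3 to 69.0). Both libraries without QTP were low and both with QTP were high, with no overlap of the intervals between them. The log2 ratio was 5.44 (4.60 to 6.44) for Drug against Control, a 43.4-fold difference. It was 6.34 (5.53 to 7.29) for Drug_Radiation against Radiation, or 80.8-fold. Drug_Radiation stood above Drug by a log2 ratio of 0.34 (0.29 to 0.39). Radiation and Control could not be ordered at this depth, with a log2 ratio of -0.55 (-1.86 to 0.77).

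**Figure D1:**
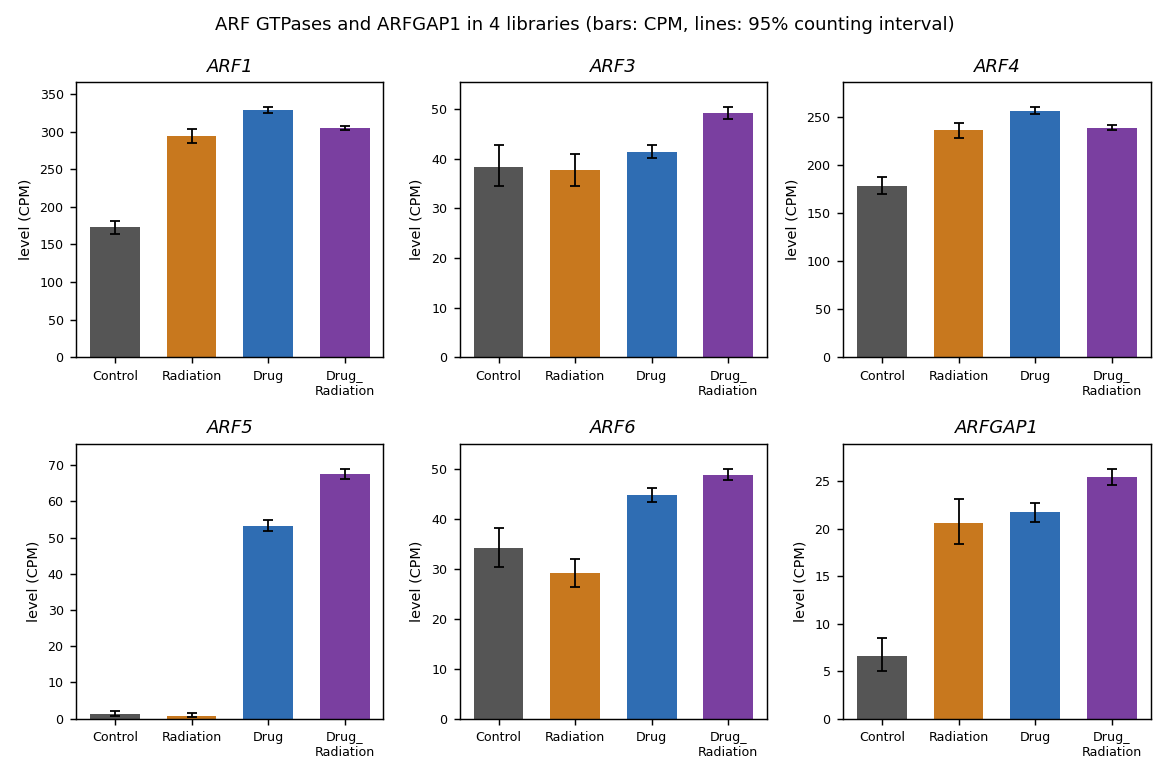
Levels of the 5 ARF genes and ARFGAP1 in CPM (vertical axes, each from 0) in Control, Radiation, Drug and Drug_Radiation. Bars are the summed level of 1 library each, and lines are 95% counting intervals. ARF5 is near 0 without QTP and at 53.3 and 67.7 CPM with it, while the other genes are measured in every library.

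Each of the other ARF genes was measured at 29.1 CPM or more in every library. ARF1 (chr1:228082660-228099212, plus strand), the best-known activator of the COPI coat, had 173 CPM in Control and 294 in Radiation, against 328 in Drug and 305 in Drug_Radiation. Its Control level was the lowest, and the other libraries lay between 294 and 328 CPM. Drug was above Control by a log2 ratio of 0.93 (0.85 to 1.002). With edgeR's TMM (trimmed mean of M-values) scaling that ratio was 0.43, and in cells of 6500 to 15000 UMIs 0.15. Drug_Radiation against Radiation gave 0.05 (0.0043 to 0.096), which turned to -0.14 with TMM scaling and to -0.21 in cells of 6500 to 15000 UMIs. ARF4 (chr3:57571363-57598220, minus strand), which works with ARF1 at the early Golgi, had 178, 235, 256 and 238 CPM in the same order. Its log2 ratios with QTP were 0.53 (0.45 to 0.60) without radiation and 0.02 (-0.03 to 0.07) with it. With TMM scaling the former fell to 0.03 and the latter turned to -0.18.

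ARF3 (chr12:48935723-48957551, minus strand), a Golgi ARF very like ARF1, had 38.4 CPM in Control and 37.7 in Radiation, against 41.4 in Drug and 49.2 in Drug_Radiation. Control, Radiation and Drug had overlapping intervals, and only Drug_Radiation stood apart. The log2 ratio of Drug against Control was 0.11 (-0.05 to 0.27) and turned to -0.39 with TMM scaling. That of Drug_Radiation against Radiation was 0.39 (0.26 to 0.51), or -0.01 in cells of 6500 to 15000 UMIs. ARF6 (chr14:49893092-49897054, plus strand), the plasma membrane ARF, had 34.2, 29.1, 44.9 and 48.9 CPM. Both libraries with QTP were above both without, though with TMM scaling Drug was below Control, at a log2 ratio of -0.11. Its log2 ratio was 0.75 (0.61 to 0.90) for Drug_Radiation against Radiation. For Drug against Control it was 0.39 (0.22 to 0.56) without that scaling.

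ARFGAP1 (chr20:63272785-63289793, plus strand) had 6.59 CPM in Control, against 20.7 in Radiation, 21.7 in Drug and 25.5 in Drug_Radiation. Control alone was low, with 59 UMIs. The log2 ratio was 1.72 (1.35 to 2.12) for Drug against Control and 1.65 (1.24 to 2.08) for Radiation against Control. It was 0.30 (0.13 to 0.48) for Drug_Radiation against Radiation, or -0.19 in cells of 6500 to 15000 UMIs. In those cells the levels were 9.37 CPM in Control (13 UMIs) and 24.2 in Radiation, against 15.8 in Drug and 21.2 in Drug_Radiation.

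A gene was counted as higher or lower when its CPM differed at least 2-fold and it reached 20 CPM in a compared library. ARF5 and ARFGAP1 were the members past 2-fold for Drug against Control, where 9.72% of 5546 genes were higher and 2.36% lower. In cells of 6500 to 15000 UMIs ARFGAP1 was no longer past 2-fold there, with a log2 ratio of 0.76 in place of 1.72. ARF5 alone was past it for Drug_Radiation against Radiation, where 1.3% of 5239 genes were higher and 1.62% lower. The median log2 ratio of all these genes was 0.51 for Drug against Control and 0.13 for Drug_Radiation against Radiation. TMM scaling moved those medians to -0.01 and -0.08. Against a median of 0.51, ARF1 at 0.93 was above the middle of all genes, ARF4 at 0.53 near it, and ARF3 at 0.11 and ARF6 at 0.39 below it. In cells of 6500 to 15000 UMIs these positions changed: the median of all genes was 0.25, with ARF1 at 0.15 and ARF4 at 0.03 below it and ARF6 at 0.64 above it.

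Shares within the family need no scaling between libraries. Of all UMIs of the 5 ARF genes, ARF5 held 0.290% (0.145 to 0.518) in Control and 0.140% (0.0725 to 0.245) in Radiation, against 7.36% (7.16 to 7.57) in Drug and 9.55% (9.37 to 9.73) in Drug_Radiation. ARF5 thus had a far larger share of family UMIs in both libraries with QTP. ARF4's share was 41.9%, 39.4%, 35.4% and 33.6% in that order, lower with QTP. A larger ARF5 share lowers the shares of the other ARF genes by itself. ARF1's share was 40.7% in Control and 49.3% in Radiation, against 45.3% in Drug and 43.0% in Drug_Radiation, with no common direction with QTP. In cells of 6500 to 15000 UMIs, ARF5 held 0.285%, 0.0700%, 7.15% and 9.91%. The split between libraries with and without QTP was therefore also present in this depth class, though its cells were still deeper with QTP.

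ARF5 lies on chromosome 7, at chr7:127588345-127591705 on the plus strand (GRCh38, GENCODE 29, ENSG00000004059). Its 3-prime end runs into FSCN3, a gene on the same strand that encodes a fascin known mainly from testis. The transcript ARF5-201 ends in exon 6, chr7:127591213-127591705, which is 493 bases long. A 705-base FSCN3 transcript without a coding sequence, FSCN3-204, starts at 127591409 inside that exon. So 297 bases at the very end of ARF5, 60.2% of its last exon, are annotated as exon of both genes. In RefSeq (GRCh38.p14) FSCN3 starts at 127593736, beyond the end of ARF5 at 127591700, and the genes do not overlap. The end of ARF5's coding sequence is shown because it lies in the last exon and outside FSCN3-204, at chr7:127591213-127591299, plus strand, with the stop codon in capitals.
ARF5 coding end: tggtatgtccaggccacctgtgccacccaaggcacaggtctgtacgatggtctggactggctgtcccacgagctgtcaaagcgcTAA
Between that stop codon and the shared stretch lie 109 bases. A 3-prime kit, as one of the labels names, primes at the poly(A) tail, so its reads fall toward the end of a transcript. Which annotation the authors counted with, and how they treated reads that fit both genes, is not given in the sources used here. In addition, the files hold UMIs per gene and no read positions, so UMIs from the shared stretch cannot be assigned to either gene from them.

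**Figure D2:**
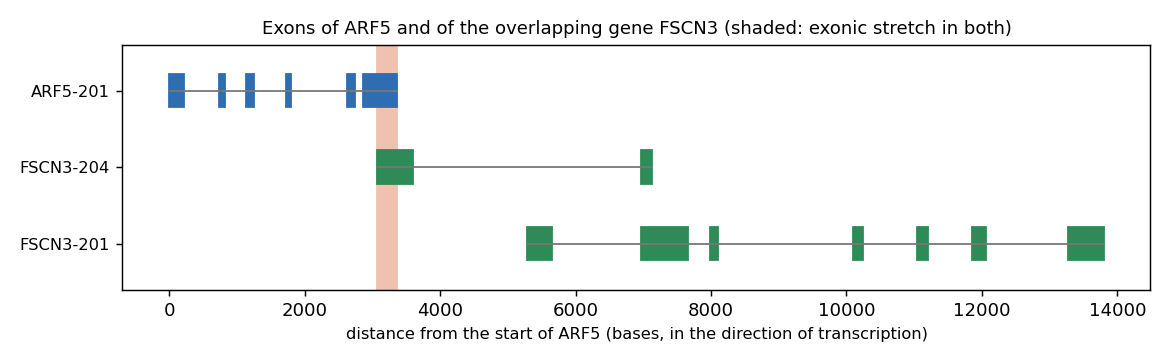
Exons (boxes) of ARF5-201, FSCN3-204 and FSCN3-201 in GENCODE 29, by distance in bases from the start of ARF5 in the direction of transcription. The shaded band is the 297 bases at the end of ARF5 that are also exon of FSCN3-204.

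FSCN3 was counted at high levels in every library: 145 CPM (138 to 154) in Control and 178 (171 to 185) in Radiation, against 166 (164 to 169) in Drug and 135 (133 to 137) in Drug_Radiation. Its log2 ratio was 0.19 for Drug against Control and -0.39 for Drug_Radiation against Radiation. ARF5 and FSCN3 summed, a comparison chosen after the data were seen, came to 147, 179, 220 and 203 CPM. The sum gave a log2 ratio of 0.58 (0.50 to 0.66) for Drug against Control, or 1.50-fold. For Drug_Radiation against Radiation it gave 0.19 (0.13 to 0.24), or 1.14-fold. FSCN3 made up most of the sum in every library. The sum therefore could not show folds as large as ARF5's 43.4 and 80.8, whatever their source. With TMM scaling the sum gave 0.082 and -0.0099, and in cells of 6500 to 15000 UMIs 0.22 and 0.046.

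**Figure D3:**
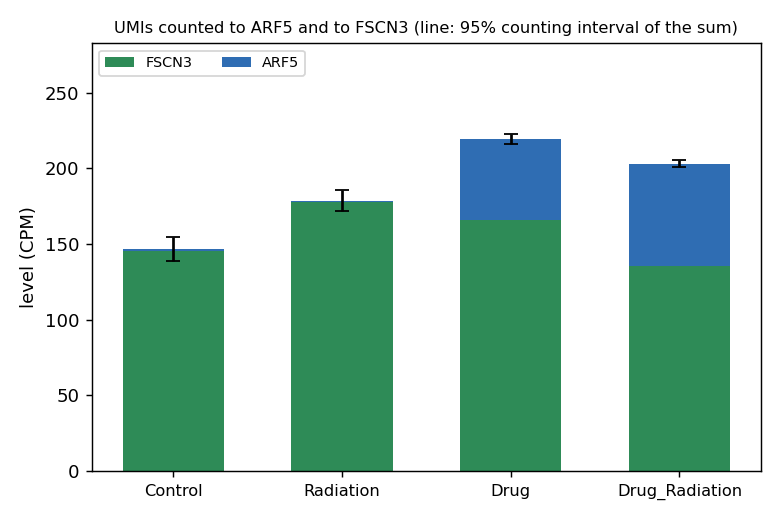
Levels in CPM of FSCN3 (green) with ARF5 stacked on it (blue) in the 4 libraries, 1 bar per library, with the 95% counting interval of the sum. The sums stand at 147, 179, 220 and 203 CPM, and ARF5 is visible only in the libraries with QTP.

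ARF5 held 0.838% (0.419 to 1.50) of the pair's UMIs in Control and 0.469% (0.242 to 0.817) in Radiation. It held 24.3% (23.7 to 24.9) in Drug and 33.3% (32.8 to 33.9) in Drug_Radiation. This share needs no scaling, but it describes the same ARF5 UMIs by which the set was chosen. The share was next taken within classes of depth. In cells of 6500 to 15000 UMIs it was 0.913% (0.111 to 3.26) in 173 Control cells and 0.240% (0.0494 to 0.699) in 770 Radiation cells. In the same depth class it was 22.3% (20.4 to 24.2) in 1023 Drug cells and 33.4% (32.1 to 34.7) in 2533 Drug_Radiation cells. Over 15000 UMIs it was 0.633% in 52 Radiation cells, 24.5% in Drug and 33.3% in Drug_Radiation. Within each library the intervals of the depth classes overlapped, and the split by QTP was as large at matched depth as over all cells. Whether the counted split between ARF5 and FSCN3 reflects transcripts or the assignment of reads was not tested.

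**Figure D4:**
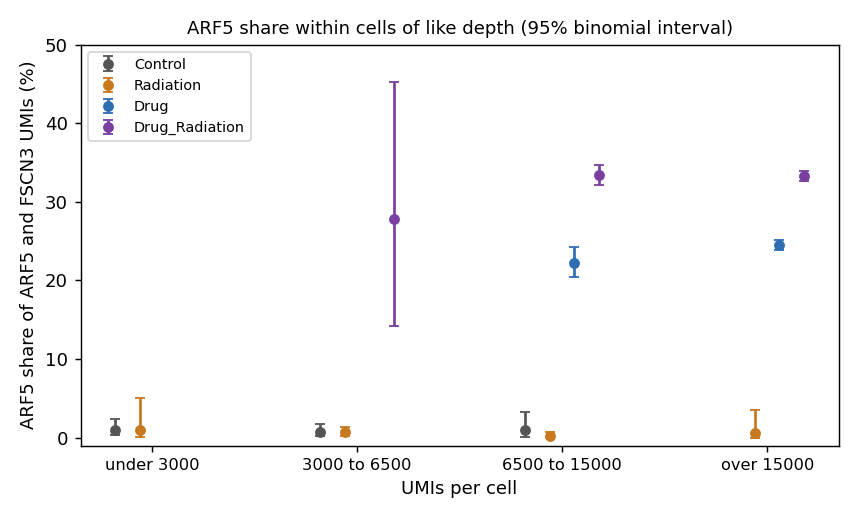
ARF5 share of the summed ARF5 and FSCN3 UMIs in percent (vertical axis) by UMIs per cell (horizontal axis), with 95% binomial intervals, for classes with at least 20 such UMIs. At 6500 to 15000 UMIs per cell the shares are 0.913% and 0.240% without QTP against 22.3% and 33.4% with it.

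The other genes nearest to ARF5 were either counted in all 4 libraries or near 0 in all of them. GCC1, a Golgi coiled-coil protein gene on the opposite strand whose span covers ARF5, had 3.35, 5.58, 6.64 and 6.31 CPM in Control, Radiation, Drug and Drug_Radiation. It shares 410 exonic bases with ARF5, and the sources used here do not give the strand counted. ZNF800, the next gene at lower coordinates, had 9.05, 7.95, 11.4 and 11.0 CPM. PAX4, beyond FSCN3, had 0 UMIs in Control and Radiation, 2 in Drug and 1 in Drug_Radiation. Among the other members, ARF4 shares 301 exonic bases with ARF4-AS1 on the opposite strand, which had 3.14 to 4.25 CPM. ARF5 was the only one of the 6 members with a same-strand exonic overlap in the annotation.

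To place the pair among others of its kind, also after the data were seen, every gene whose 3-prime end lies inside a same-strand exon of another counted gene was listed. This gave 402 pairs, and 134 of them summed to at least 20 CPM in every library. For each, the share of the pair's UMIs held by the gene whose end is covered was compared with and without QTP. It moved by less than 5 percentage points in both QTP comparisons in 97 pairs. The median change over the 134 pairs was -0.0051 points without radiation and 0.0095 with it. Many pairs held a share near 0% or 100% in every library, such as BISPR (0%) and DIABLO (100%). Few points can be gained or lost there, so the count of 97 and the medians partly reflect those limits. In 4 pairs the share was at least 10 points higher in both comparisons. In 1 pair, RBM6 with RBM5, it was at least 10 points lower in both, at -15.3 and -13.8. ARF5 with FSCN3 was the third of the 4 higher ones by the smaller gain, at 23.5 and 32.8 points. PHPT1, a histidine phosphatase gene, with MAMDC4 gained 49.0 and 40.5 points, going from 37.4% in Control and 49.2% in Radiation to 86.4% in Drug and 89.7% in Drug_Radiation. MXD3, a MYC-network repressor gene, with RAB24 gained 32.5 and 38.9 points. The other was ENSG00000285016 with MIR4435-2HG, at 23.3 and 23.9 points.

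**Figure D5:**
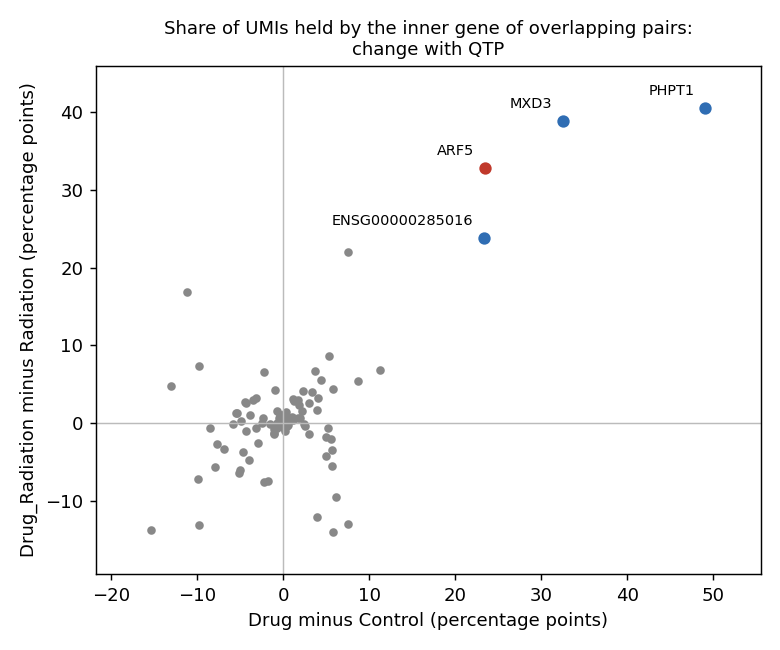
Change with QTP in the share of a pair's UMIs held by the gene whose 3-prime end lies inside the other, in percentage points, for Drug minus Control (horizontal) and Drug_Radiation minus Radiation (vertical). Each of the 134 points is a pair, ARF5 is red at 23.5 and 32.8, and the 4 named pairs are those at least 10 points higher on both axes.

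The same ARF5 UMIs, by which the set was chosen, were also described per cell. No cell had more than 1 ARF5 UMI in Control or Radiation, and the highest count was 12 in Drug and 16 in Drug_Radiation. In Drug 29.01% of cells had 1 ARF5 UMI, 16.3% had 2 and 15.8% had 3 or more. In Drug_Radiation these were 30.2%, 17.5% and 18.4%. ARF5 was thus spread over most cells with QTP and not carried by a few. The share of cells with an ARF5 UMI was 0.346%, 0.495%, 61.1% and 66.0% in Control, Radiation, Drug and Drug_Radiation.

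Since depth differs, each cell was also thinned to 1000 UMIs, which left out no cell. ARF5 was then seen in 5 of 3183 Control cells (0.157%, 0.0510 to 0.366) and in 1 of 2425 Radiation cells (0.0412%, 0.0010 to 0.230). It was seen in 4.87% of Drug cells (4.20 to 5.60) and 6.28% of Drug_Radiation cells (5.72 to 6.87). These thinned shares describe the same ARF5 UMIs at equal depth and are no separate support. For the abundant ARF1 the thinned shares were 13.5%, 22.4%, 24.6% and 23.7%, with Control alone low. For FSCN3 they were 12.8%, 16.5%, 13.99% and 12.1%. The unthinned ARF1 shares were 33.4%, 73.6%, 96.0% and 96.0%, and those of FSCN3 31.3%, 59.5%, 89.6% and 84.9%. The libraries hold 1 cell line, so no other cell type gives a background share.

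Among the other members, levels also differed by depth within a library. ARF1 had 124 CPM in Control cells under 3000 UMIs, 204 at 3000 to 6500 and 221 at 6500 to 15000. In Radiation it had 224, 287 and 309 CPM in the same classes. At 6500 to 15000 UMIs it had 245 CPM in Drug and 267 in Drug_Radiation, against 340 and 314 over 15000. In cells of 6500 to 15000 UMIs, ARF1 therefore differed less between Drug and Control, with a log2 ratio of 0.15, than over all cells. ARF4's ratio likewise was 0.03 there, while that of ARF6 was 0.64 and that of ARF3 -0.65.

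Cells in division were compared with the rest, since ARF1 and ARF6 both act in cell division. No cell had 1% of its UMIs in the 33 S phase, G2 and mitosis genes, so a limit of 0.3% was set after the data were seen. It marked 9.58% of Control, 7.30% of Radiation, 10.4% of Drug and 5.31% of Drug_Radiation cells. ARF1 was higher in the marked cells of each library, with 238 against 164 CPM in Control, 337 against 290 in Radiation, 372 against 322 in Drug and 361 against 301 in Drug_Radiation. ARF6 was 48.2 against 32.3, 38.2 against 28.2, 52.7 against 43.8 and 55.4 against 48.5 CPM, with overlapping intervals in Control and Radiation. ARF5 stood at 55.0 against 53.1 CPM in Drug and at 73.4 against 67.3 in Drug_Radiation, with overlapping intervals in both. Marked cells were also deeper, with a median of 3217 against 2252 UMIs in Control and 27152 against 19830 in Drug, and the part of depth was not tested.

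Radiation was compared with no radiation in each background. Without QTP, ARF1 was higher in Radiation than in Control by a log2 ratio of 0.77 (0.68 to 0.85) and ARF4 by 0.40 (0.32 to 0.49). ARFGAP1 at 1.65 was the only member past 2-fold, where 2.41% of 4818 genes were higher and 0.892% lower. With QTP, Drug_Radiation against Drug gave small ratios: -0.11 for ARF1, -0.10 for ARF4, 0.12 for ARF6, 0.23 for ARFGAP1 and 0.25 for ARF3. With TMM scaling those of ARF1 and ARF4 turned to 0.05 and 0.05, and in cells of 6500 to 15000 UMIs that of ARF6 turned to -0.06. No member was past 2-fold there, where 0.287% of 5570 genes were higher and 0.162% lower. For ARFGAP1 the radiation ratio was lower with QTP than without by 1.42 on the log2 scale (difference -1.42, -1.83 to -1.01). For ARF5 the difference was 0.90 with an interval of -0.28 to 2.08, so it could not be told from 0 at this depth.

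The wider ARF machinery was read from lists of 118 genes in 6 groups, of which 58 reached 20 CPM for Drug against Control. Of these 58, 7 were 2-fold higher and 0 lower, beside the 9.72% and 2.36% of all genes. Their median log2 ratio was 0.66, against 0.51 for all genes. For Drug_Radiation against Radiation, 0 of 53 were 2-fold higher and 0 lower, with a median of 0.16 against 0.13. No gene of the lists was 2-fold higher in both QTP comparisons. ARF5 was, but the set was chosen by its UMIs with and without QTP, so this contrast is a description. With TMM scaling, 1 gene was 2-fold higher for Drug against Control, and the median was 0.15.

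Of the coat and cargo genes, 15 of 17 were measured, with a median of 0.66 for Drug against Control and 0.08 for Drug_Radiation against Radiation. COPG1, a COPI coat subunit, had 11.8 CPM in Control and 17.1 in Radiation, against 27.3 in Drug and 27.0 in Drug_Radiation. Its ratio of 1.20 (0.92 to 1.50) for Drug against Control was the one past 2-fold. KDELR1, the receptor that returns endoplasmic reticulum proteins, had 197, 359, 348 and 304 CPM. TMED9, a cargo receptor, had 178, 283, 315 and 293 CPM, and TMED10, its partner, 120, 151, 177 and 165. COPZ1, another coat subunit, had 98.6, 158, 178 and 164 CPM. In these receptors and in COPZ1, Control was the lowest of the 4 libraries. Most genes were also lower in Control: 4987 of 5546 had a log2 ratio above 0 for Drug against Control. For Radiation against Control 3284 of 4818 did.

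Clathrin adaptors that ARF recruits had the highest group median for Drug against Control, 0.82 over 12 of 21 genes, against 0.51 for all genes. AP1M1, AP1G2, AP1B1 and GGA1 were past 2-fold, at 1.25, 1.30, 1.22 and 1.08, where 9.72% of all genes were higher. With TMM scaling only 1 gene of all the lists was 2-fold higher there. It was not 1 of these 4, so these calls rest on the scaling. None of the 4 was past 2-fold for Drug_Radiation against Radiation. AP1M1, the medium subunit of the AP-1 adaptor, had 46.6 CPM in Control and 92.0 in Radiation, against 111 in Drug and 101 in Drug_Radiation. AP1S1, the small subunit, had 126, 214, 235 and 218 CPM, with Control the lowest, as for the coat and cargo genes named above. AP1B1 was also the one list gene past 2-fold for Radiation against Control, at 1.17. AP3S1 and AP3B1, subunits of the AP-3 adaptor, gave 0.53 and 0.84 for Drug against Control.

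Among ARF-like and SAR GTPases, 12 of 23 were measured, with a median of 0.76 for Drug against Control. ARFRP1, an ARF-related Golgi GTPase, had 12.5, 24.9, 31.5 and 29.8 CPM, and was the one past 2-fold at 1.33. ARL2, a tubulin-folding partner, had 81.2, 103, 145 and 114 CPM, and SAR1A, which starts the COPII coat, 52.2, 70.6, 89.2 and 73.4. ARL1, a Golgi GTPase, gave 0.74 for Drug against Control. All 12 were below 0 for Drug_Radiation against Drug, as were all 15 coat and cargo genes. So were 4368 of all 5570 genes, whose median was -0.18. TMM scaling moved that median to -0.03 and the median of all measured list genes from -0.14 to 0.033, so the direction there rests on the scaling.

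ARFGAP2, the relative of ARFGAP1 that works with the COPI coat, had 7.04 CPM in Control and 18.6 in Radiation, against 23.8 in Drug and 22.4 in Drug_Radiation. Like ARFGAP1 it was low in Control alone, with a log2 ratio of 1.76 (1.40 to 2.14) for Drug against Control, the highest of the 58. The other activating proteins were nearer to all genes, with 0.18 for ASAP1, 0.66 for SMAP1, 0.41 for ASAP2 and 0.57 for ACAP1. Exchange factors, which load ARF with GTP, were scarce: 1 of 15 reached 20 CPM for Drug against Control. That was CYTH2, at 19.1, 16.1, 23.7 and 18.1 CPM, while ARFGEF2, CYTH3 and FBXO8 had at most 19.9 CPM. Among other effectors, PI4KB, the Golgi lipid kinase, had 19.4, 37.2, 36.3 and 36.5 CPM. SPAG9, PIP5K1A and EXOC5 gave 0.79, 0.45 and 0.31 for Drug against Control.

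The genes most like ARF5 were ranked by Euclidean distance between their 4 log2(CPM + 1) values, each gene centred on its mean, among 5686 genes. The nearest was MYEOV, named for its overexpression in myeloma, at a distance of 0.94, with 0.112, 0.279, 14.4 and 27.6 CPM. It had 1 UMI in Control and 4 in Radiation, so its log2 ratio for Drug against Control was 7.01 with a counting interval of 4.53 to 12.3. DDTL, a relative of D-dopachrome tautomerase, followed at 1.16, with 1.79, 1.81, 29.1 and 50.1 CPM. The others were farther off, from RPSA at 2.64 over HNRNPA1L2, MT-CO2, CLVS1 and SYVN1 to DHCR7 at 3.39. MT-CO2 is a mitochondrial gene, and DHCR7 encodes the last enzyme of cholesterol synthesis.

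Of these 8 genes, SYVN1 was the only one whose 3-prime end lies in a same-strand exon of another gene, the ribosomal fusion gene FAU. Such an end was found for 99 of 5670 genes, or 1.75%. SYVN1's share of the UMIs of its pair went from 0.369% in Control to 2.18% in Drug. From Radiation to Drug_Radiation it went from 0.889% to 3.13%. In points these gains were 1.81 and 2.24, against 23.5 and 32.8 for ARF5, and FAU's far higher level keeps SYVN1's share small. RPSA, another of the 8, had 1 named copy among the features. SYVN1, whose product tags misfolded secretory proteins with ubiquitin, had 7.93, 16.8, 35.3 and 57.1 CPM, beside 2142, 1874, 1586 and 1765 for FAU. For the other members the nearest patterns were much closer. ARF1 was nearest to ATG4B (0.025) and AP1S1 (0.025), ARF3 to GRINA (0.032) and JUNB (0.034), and ARF4 to TFPI2 (0.0045) and NDFIP1 (0.016). ARF6 was nearest to DCBLD2 (0.026) and AGAP1 (0.029), and ARFGAP1 to CALCOCO1 (0.18) and EML2 (0.21).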

How the data were processed

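The values are UMI counts for each gene in each cell barcode, deposited by the authors without normalization. Per the labels' protocols, the kit was PIPseq V T2 3-prime, but a description field says 10x Genomics. Per the submitters' processing notes, Seurat 4.3.3 and hg38 were used, with no role given. Not given in the sources used here: aligner, counter, strand, annotation and barcode calling. Barcode totals started at 1009 UMIs (Control), 1592 (Radiation), 6427 (Drug) and 6244 (Drug_Radiation). Library totals were 9249567, 14859709, 90903552 and 149368293 UMIs.

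Cells with at least 500 UMIs, 300 genes and under 20% mitochondrial UMIs were kept, and UMIs were summed per library with pandas 2.3.3 and scipy 1.17.1. Doublets were not called. Intervals at 95% are exact Poisson for CPM, exact conditional binomial for ratios and exact Clopper-Pearson for shares. The interval of a difference between radiation ratios is a normal approximation on the log scale. Ratios carry no added value. Positions are from GENCODE 29, which held 34472 (92.0%) of 37468 features. Alternatives were other cell filters, edgeR 4.0.16 and DESeq2 1.42.0 scaling, equal weight per cell, cells of 6500 to 15000 UMIs, an added 1 CPM and a minimum of 5 CPM. The ratio calculation was run on simulated Poisson counts with set folds. That checks the calculation only, since the simulation held no variation between libraries or cells. Members and lists were chosen with earlier results of these data known. Named genes were all members, up to 4 genes per list by mean level, list genes 2-fold apart in both QTP comparisons, and the nearest patterns (8 for ARF5, 2 for each other member). One gene that this rule names is not reported here. The other list genes past 2-fold, and the overlapping pairs, were named after their values were seen.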

Additional observations from a re-analysis of the deposited data

Results flagged for a closer look

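For 3 members radiation went opposite ways without and with QTP, with counting intervals that exclude 0, and with 1 library per group these differences were not tested. The radiation log2 ratio of ARF1 was 0.77 without QTP and -0.11 with it, a difference of -0.88. That of ARF4 was 0.40 and -0.10, a difference of -0.51. With TMM scaling the ratios with QTP were 0.05 for both genes, so the opposite signs were not kept. That of ARF6 was -0.23 and 0.12, a difference of 0.36, and in cells of 6500 to 15000 UMIs both were below 0, at -0.02 and -0.06.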

How the results depend on the processing

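ARF5 alone stayed above 0 for both QTP comparisons and for Drug_Radiation against Drug under every alternative run on it alone. With 1 CPM added, Drug_Radiation against Radiation gave 5.22. Drug_Radiation against Drug gave 0.50 with TMM scaling, 0.49 with DESeq2 size factors, 0.40 with equal weight per cell, 0.63 in cells of 6500 to 15000 UMIs and 0.41 scaled to the other ARF genes. With ARF5 and FSCN3 summed, chosen after seeing the data, the log2 ratio was 0.58 for Drug against Control, 0.19 for Drug_Radiation against Radiation and -0.11 for Drug_Radiation against Drug. In cells of 6500 to 15000 UMIs the sum gave 0.22, 0.046 and 0.043. With TMM scaling it gave 0.082, -0.0099 and 0.043. The ratio for Drug_Radiation against Radiation thus changed sign but lay close to 0. That for Drug_Radiation against Drug changed sign under both alternatives.

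The 7 list genes 2-fold higher for Drug against Control were 1 with TMM scaling, 1 with DESeq2 size factors, 14 in cells of 6500 to 15000 UMIs and 11 with a minimum of 5 CPM. The 1 for Radiation against Control was 2 with the stricter cell filter, 2 with DESeq2, 4 with equal weight per cell, 0 in cells of 6500 to 15000 UMIs and 3 with a minimum of 5 CPM. In those cells 1 was lower for Drug against Control, 1 lower for Radiation against Control and 1 higher for Drug_Radiation against Radiation, where the main counts were 0. The causes were not tested.

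Of 160 alternative ratios of the other members, 107 stayed within the counting interval, 53 moved outside it and 22 changed sign. TMM scaling moved the share of genes 2-fold higher for Drug against Control from 9.72% to 0.789%, and of those lower from 2.36% to 4.14%. Thinned to 5000 UMIs, ARF5 was seen in 1 of 394 Control and 4 of 1353 Radiation cells, and in 20.7% of Drug and 26.5% of Drug_Radiation cells. Adding named copies was not run, since the files hold 0. No paired analysis was possible because each group has 1 library.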
